A study of Rattus norvegicus with 18 samples.

Results

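The genes described here are Igf2bp2 and its 2 paralogs, Igf2bp1 and Igf2bp3, with the insulin-like growth factor (IGF) genes Igf1 and Igf2, their receptors Igf1r and Igf2r, and the binding protein genes Igfbp2, Igfbp3 and Igfbp5. These 10 genes were chosen by symbol, with earlier results of these data known. All 10 were found among the 32285 genes of the retina table. In RPE/choroid, the retinal pigment epithelium with the vascular layer behind it, 9 of the 10 were named by the deposited tables among 32552 genes, and Igf2bp3 was the gene without a name there. RNA-seq of bulk tissue gave 18 libraries from wild-type female Fischer 344 rats, an inbred strain whose retina degenerates with age. By the labels, young rats were 4 months old and aged rats 24 months old. The sources differ on the age of the young rats, and the text of the study gives a lower one. Treated aged rats were also 24 months old and had received 8-aminoguanine (8-AG), a purine that blocks purine nucleoside phosphorylase, in drinking water at 5 mg/kg per day for 8 weeks, while untreated aged rats drank water. There were 3 libraries in each group of each tissue.

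IGF1 and IGF2 are secreted growth factors that signal through the tyrosine kinase receptor IGF1R, whereas IGF2R, the mannose 6-phosphate receptor, takes up IGF2 and delivers it to lysosomes. IGF-binding proteins hold the factors outside the cell and set how much reaches the receptors. The IGF2BP proteins are a different family, which binds RNA inside the cell. They attach to Igf2 and many other mRNAs, affect their stability, translation and location, and read N6-methyladenosine marks on mRNA. Igf2bp1 and Igf2bp3 are known mainly from embryonic and tumour cells, whereas Igf2bp2 is also made in adult tissues.

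A level in CPM is a count scaled to a common library size with TMM correction, separately for each tissue. Log2 fold changes and their standard errors (SE) came from edgeR and are positive where the first-named group was higher. A gene was called if its fold change exceeded 1.5 with an unadjusted P under 0.05, and adjusted p-values cover every gene that a comparison tested. The retina libraries held 12283425 to 15644317 counts and the RPE/choroid libraries 28573828 to 48203050. By the labels, the 3 treated retina libraries came from total RNA and the other 15 from polyA RNA, while the protocol describes poly-A capture throughout. Rod genes, 7 defining markers including Gnat1 and Nrl, summed to 12387 CPM or more in every retina library. The 7 markers of the pigment epithelium summed to between 1410 and 5717 CPM in the RPE/choroid libraries.

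Among the family of RNA-binding proteins, Igf2bp2 (ENSRNOG00000025946) was much lower in aged than in young retina, and 8-AG-treated retina lay close to aged retina. Its level in young retina was 56.2, 54.8 and 60.4 CPM in libraries 1 to 3. The aged libraries had 12.4, 12.4 and 13.1 CPM. The 8-AG-treated libraries had 15.4, 16.9 and 15.6 CPM. The 3 groups did not overlap, and libraries within a group lay close together. Young libraries averaged 57.1 ± 2.88 CPM, aged libraries 12.6 ± 0.428 and treated libraries 15.95 ± 0.802 (SD, n = 3). The log2 fold change was -2.18 (SE 0.08) in aged against young retina, a level 4.52-fold lower, and stayed between -2.21 and -2.14 when any 1 library was left out. Igf2bp2 was chosen with its values in these data known, so these values are a description and no p-value is given. Of 14588 genes tested, 36 had a lower log2 fold change.

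In 8-AG-treated against aged retina, the log2 fold change of Igf2bp2 was 0.33 (SE 0.11), and it lay between 0.29 and 0.36 when any 1 library was left out. The mean of the treated libraries was 27.9% of the young mean, and that of the aged libraries 22.1%. The aged libraries enter both comparisons. Of all 14631 genes tested in 8-AG-treated against aged retina, 8.78% had groups that did not overlap.

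Igf2bp3 (ENSRNOG00000009052) was close to the lower end of what these libraries could measure. It had 12, 7 and 15 counts in the young retina libraries, 1, 0 and 6 in the aged and 1, 2 and 2 in the 8-AG-treated libraries. The count of 0 allows a level of up to 0.191 CPM in that library, for counting error only. Every aged and treated library was thus below every young library. Among the genes tested in aged against young retina, 35.3% had groups that did not overlap. The gene did not pass the filter on low counts, and an edgeR fit without that filter gave a log2 fold change of -2.28 (SE 0.72) for the aging change, a description only. The same fit gave -0.37 (SE 1.07) for the change with treatment. Igf2bp1 (ENSRNOG00000006122) had 1 to 7 counts in each of the 9 retina libraries, with overlap between all groups, and did not pass the filter.

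Igf2bp2 and Igf2bp3, the latter with too few counts to pass the filter, differ in the sequence before their start. The 250 bases before the annotated start, from RefSeq on the rat build GRCr8, are shown for both on the gene's own strand, with GC boxes in capitals. A GC box is GGGCGG or its reverse complement CCGCCC, and boxes may overlap. The region of Igf2bp2 is chr11:92378658-92378907, plus strand, and that of Igf2bp3 is chr4:79525731-79525980, minus strand. RefSeq held such a region for 9 of the 10 genes.
Igf2bp2: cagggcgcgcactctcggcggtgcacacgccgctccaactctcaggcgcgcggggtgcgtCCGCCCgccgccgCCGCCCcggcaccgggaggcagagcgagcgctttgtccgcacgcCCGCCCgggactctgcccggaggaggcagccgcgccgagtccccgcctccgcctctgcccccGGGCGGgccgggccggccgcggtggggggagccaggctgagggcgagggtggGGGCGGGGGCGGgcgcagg
Igf2bp3: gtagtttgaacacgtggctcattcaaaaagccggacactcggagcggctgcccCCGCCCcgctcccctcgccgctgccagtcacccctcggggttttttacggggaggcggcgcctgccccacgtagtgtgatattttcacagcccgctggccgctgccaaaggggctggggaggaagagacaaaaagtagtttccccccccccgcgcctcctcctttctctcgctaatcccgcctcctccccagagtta
The Igf2bp2 region holds 6 GC boxes and 39 CG dinucleotides, and 98.6% of the 33469 rat promoter regions of this length hold fewer CG dinucleotides. The Igf2bp3 region holds 1 GC box and 19 CG dinucleotides, more than 81.6% of the regions. A GC box occurs in 30.5% of all regions. Neither region holds TATAAA on either strand, a motif found in 12.9% of the regions. These matches describe letters only, and no binding was measured.

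**Figure D1:**
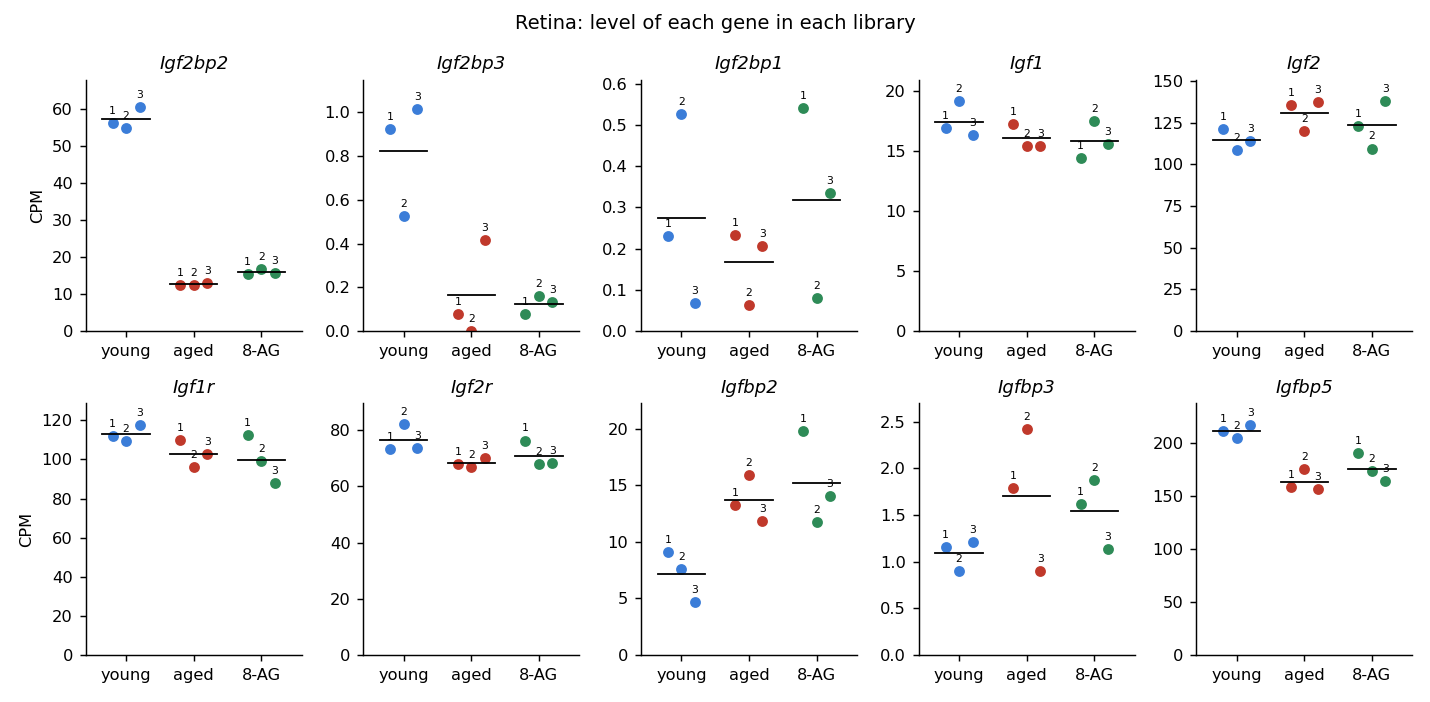
Level of each of the 10 genes in the 9 retina libraries, in CPM on linear axes that start at 0. Points are libraries numbered 1 to 3 within young, aged and 8-AG-treated aged (8-AG) retina, and black lines are group means. Igf2bp2 lies at 54.8 CPM or more in young and at 16.9 CPM or less in all other libraries, and Igfbp2 is higher in every aged and treated library than in young retina.

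Igf2bp2 is left out of the counts of members that follow. Of the 7 other members that passed the filter in aged against young retina, 1 was called, Igfbp2 as higher, and 8.84% of all 14588 genes were called, 6.45% as higher and 2.39% as lower. The adjusted p was under 0.05 for 2 of the 7, Igfbp2 and Igfbp5, and for 14.5% of all genes. Groups did not overlap for 3 of the 7, Igf2r, Igfbp2 and Igfbp5, and for 35.3% of all genes.

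The growth factor genes themselves differed little with age in the retina. Igf1 (ENSRNOG00000004517) was at 16.9, 19.2 and 16.3 CPM in young, 17.3, 15.5 and 15.5 in aged and 14.4, 17.5 and 15.6 in treated libraries. These ranges overlapped, with a log2 fold change of -0.12 (SE 0.10, adjusted p = 0.47) in aged against young retina. Igf2 (ENSRNOG00000020369), an imprinted gene whose mRNA gave the IGF2BP family its name, had 121, 108 and 114 CPM in young and 135, 120 and 137 in aged retina. Only the lowest aged library fell within the young range. The log2 fold change of Igf2 was 0.20 (SE 0.07, adjusted p = 0.097). Treated libraries ranged from 109 to 138 CPM for Igf2 and covered most of both ranges.

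Both receptor genes were slightly lower in aged retina without passing the adjusted threshold. Igf1r (ENSRNOG00000014187) was at 112, 109 and 118 CPM in young and 110, 96.4 and 103 in aged libraries, with a log2 fold change of -0.14 (SE 0.06, adjusted p = 0.19). Igf2r (ENSRNOG00000014997) was at 73.3, 82.1 and 73.8 CPM in young and 68.0, 66.9 and 70.0 in aged libraries, with no overlap and a log2 fold change of -0.16 (SE 0.06, adjusted p = 0.12). Treated retina held 88.0 to 112 CPM of Igf1r and 67.9 to 76.3 CPM of Igf2r, overlapping both other groups for each gene.

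The binding protein genes moved in different directions with age. Igfbp2 (ENSRNOG00000016957), which encodes a secreted binding protein found in brain and eye fluids, was at 9.09, 7.60 and 4.66 CPM in young and 13.3, 15.9 and 11.9 in aged retina. Every aged library was above every young one. Igfbp2 rose with a log2 fold change of 0.95 (SE 0.23, adjusted p = 0.030), a 1.93-fold increase. Its log2 fold change lay between 0.71 and 1.17 when 1 library was left out, with the call kept each time by the rule of fold and P. The adjusted p exceeded 0.05 without young library 2 (0.087) or without aged library 1 (0.070), 2 (0.096) or 3 (0.053). It was at 19.8, 11.7 and 14.1 CPM in treated libraries 1 to 3, and library 1 was the highest of all.

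Igfbp5 (ENSRNOG00000017206), which binds IGFs and extracellular matrix, was at 212, 205 and 217 CPM in young and 159, 175 and 157 in aged retina. The groups did not overlap. Its log2 fold change of -0.37 (SE 0.06, adjusted p = 0.0038) passed the adjusted threshold but was under 1.5-fold. The treated libraries had 191, 173 and 164 CPM, all below the young libraries. Igfbp3 (ENSRNOG00000061910), the main IGF carrier in serum, stayed near 1 CPM, with 1.16, 0.90 and 1.22 CPM in young and 1.79, 2.42 and 0.90 in aged retina. Its log2 fold change of 0.64 (SE 0.38, adjusted p = 0.30) was not called, but it was 0.95 and called without aged library 3.

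Igfbp2 and Igfbp5 are neighbours, with 0 genes annotated between them in RefSeq, and lie on opposite strands. Because the 2 neighbours moved in opposite directions in aged retina, the 250 bases before their starts are shown as above, at chr9:81864561-81864810 on the plus strand for Igfbp2 and chr9:81914188-81914437 on the minus strand for Igfbp5 (GRCr8).
Igfbp2: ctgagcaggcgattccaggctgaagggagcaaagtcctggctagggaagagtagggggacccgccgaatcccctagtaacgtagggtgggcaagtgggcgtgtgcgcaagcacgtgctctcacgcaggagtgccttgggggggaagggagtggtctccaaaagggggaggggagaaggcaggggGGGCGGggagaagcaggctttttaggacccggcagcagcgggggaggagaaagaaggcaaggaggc
Igfbp5: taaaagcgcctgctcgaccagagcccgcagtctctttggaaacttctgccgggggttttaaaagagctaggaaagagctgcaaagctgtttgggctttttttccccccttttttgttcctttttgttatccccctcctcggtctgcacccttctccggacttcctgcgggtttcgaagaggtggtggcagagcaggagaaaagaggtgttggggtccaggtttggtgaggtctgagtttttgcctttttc
The Igfbp2 region holds 1 GC box and the Igfbp5 region 0. Neither holds TATAAA on either strand.

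None of the 7 other members tested in 8-AG-treated against aged retina was called, and 0.957% of all 14631 genes were. These members had log2 fold changes from -0.16 (Igfbp3, SE 0.38) to 0.15 (Igfbp2, SE 0.20), each smaller than 1.3 times its standard error, with adjusted p-values of 0.996. The value for Igfbp2 was -0.09 without treated library 1.

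**Figure D2:**
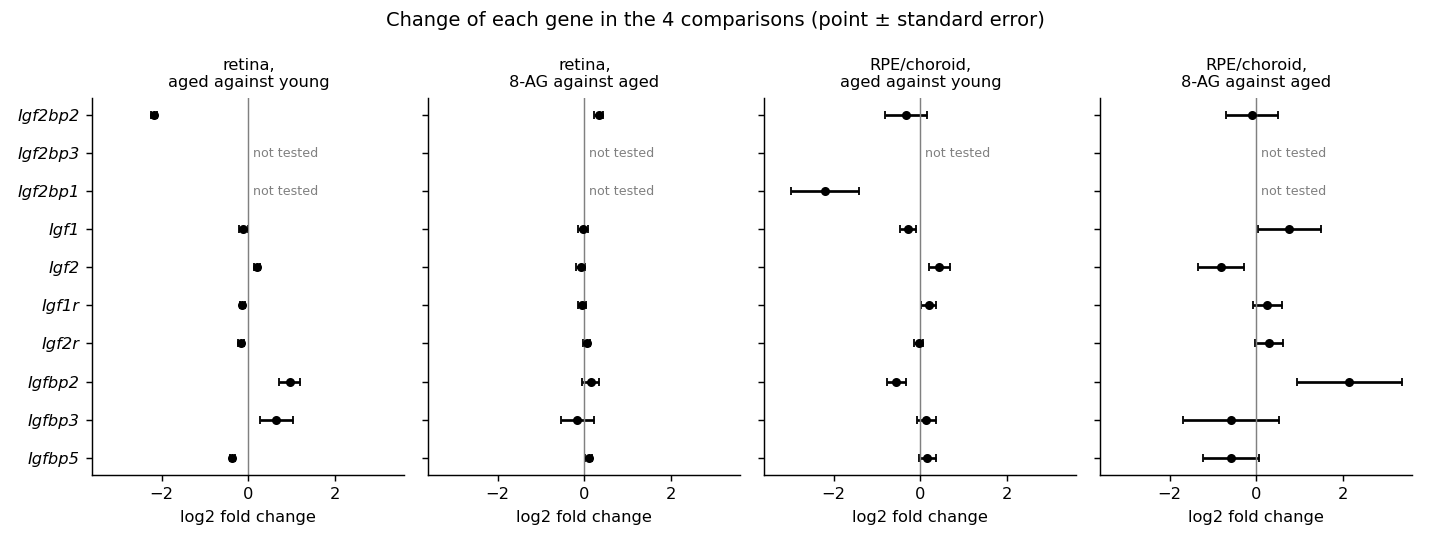
Log2 fold change of the 10 genes in the 4 comparisons, with points for the edgeR estimate and bars for the standard error. Igf2bp2 lies at -2.18 in aged against young retina. With 8-AG, the bars are wider in RPE/choroid than in retina for each of the 8 genes tested in both tissues. Genes marked as not tested did not pass the filter or, for Igf2bp3 in RPE/choroid, had no name in the tables.

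Cell type markers moved with age in the retina, and their part in these results was not tested. The 7 rod markers summed to 22522 to 24611 CPM in young, 12387 to 13849 in aged and 14358 to 17446 in treated retina, and 6 of 7 were lower at an adjusted p under 0.05. In bulk tissue, fewer cells of a type and less RNA per cell cannot be told apart. The 5 microglia and macrophage markers summed to 27.0 to 28.3 CPM in young, 79.7 to 128 in aged and 84.8 to 88.5 in treated retina. The 5 Mueller glia markers did not move together. Their sum, 3467 to 3619 CPM in young and 2790 to 3143 in aged retina, was mostly Glul, the glutamine synthetase gene, which fell from 2596 to 2771 CPM in young to 1738 to 2155 in aged retina. Aqp4, a water channel gene, rose from 223 to 250 CPM to 276 to 330, and the median log2 fold change of the 5 was 0.16, with Aqp4 and Glul the 2 genes past the adjusted threshold. For the 7 pigment epithelium markers the median aging change on the log2 scale was 0.91, with 0 called and Rlbp1, also made by Mueller glia, lower at an adjusted p under 0.05. Their sums overlapped, at 332 to 406 CPM in young, 239 to 404 in aged and 360.2 to 480.3 in treated retina. These sums were mostly Rlbp1, at 296 to 315 CPM in young retina, and hide wide differences between libraries in other markers. Rpe65 was at 6.55, 18.6 and 2.16 CPM in young, 41.2, 4.59 and 26.3 in aged and 63.6, 32.1 and 24.4 in treated libraries. The 4 melanocyte markers summed to 29.6, 30.0 and 5.06 CPM in young, 54.8, 28.6 and 32.3 in aged and 107, 33.0 and 55.7 in treated libraries 1 to 3, with 0 called with age. Young library 3 was lowest and treated library 1 highest both in this sum and in Igfbp2, whereas aged library 2 had the lowest melanocyte sum and the highest Igfbp2 of the aged libraries. Lens markers, 5 crystallin and lens fibre genes, were high in young library 2 (4880 CPM), young library 1 (2249) and treated library 1 (1315), at 116 CPM in young library 3, and at 18.9 CPM or less in the other libraries. Igf2bp2 was highest in young library 3, the young library with the lowest lens sum. Markers of surface epithelium summed to 8.64 to 18.6 CPM in treated retina and 4.52 CPM or less in all other retina libraries.

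The wider pathway was followed with 67 genes of IGF, insulin and growth hormone signalling and of the IGF2BP2 partners, 61 of them with a name in the tables and 55 past the filter in retina. In aged against young retina 2 of the 55 were called, both higher, where 8.84% of all genes were called and 6.45% as higher. Mest, an imprinted gene of the alpha/beta hydrolase family, rose from 21.5, 18.4 and 17.8 CPM in young to 30.5, 46.7 and 34.4 in aged retina, with a log2 fold change of 0.95 (SE 0.16, adjusted p = 0.0079). Igfbp6, a binding protein that prefers IGF2, was at 0.77, 0.60 and 0.41 CPM in young and 1.33, 1.72 and 1.10 in aged retina, with a log2 fold change of 1.23 (SE 0.37, adjusted p = 0.051). Neither gene's groups overlapped. Igfbp6 had 10, 8 and 6 counts in young and 17, 27 and 16 in aged libraries and passed the filter only through the aged libraries, where it was high, so its call is a description only. With at least 10 counts required in every library, Igfbp6 was not tested and Mest was the 1 pathway gene called.

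The adjusted p was under 0.05 for 7 of the 55 pathway genes, Mest as higher and 6 as lower, each of the latter by less than 1.5-fold. Over all 14588 genes it was under 0.05 for 14.5%, 1063 of them as higher and 1059 as lower. Hmga1, a chromatin protein related to the IGF2BP2 regulator HMGA2, fell by 0.46 on the log2 scale (SE 0.12, adjusted p = 0.026). Stat5b, a transcription factor downstream of growth hormone, had a log2 fold change of -0.41 (SE 0.06), and Sos1, which activates Ras below receptor kinases, -0.40 (SE 0.07). Alkbh5, an enzyme that removes N6-methyladenosine, had -0.31 (SE 0.06). In the kinase branch, Rps6kb1, the S6 kinase gene, had -0.30 (SE 0.07) and Gsk3b -0.25 (SE 0.05), while the other 17 of 19 PI3K, AKT and mTOR genes did not pass. The median log2 fold change was -0.10 over the 55 pathway genes and 0.00 over all genes tested.

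Igfbp7 was the pathway gene with the lowest estimate in aged retina, at -1.48 (SE 0.66, adjusted p = 0.24). It was at 183, 221 and 44.4 CPM in young, 52.6, 57.5 and 50.4 in aged and 271, 50.02 and 52.6 in treated retina. The 3 high libraries were also those highest in the lens markers, and the part of lens tissue was not tested. None of the 55 pathway genes tested was called in 8-AG-treated against aged retina, with 0 at an unadjusted P under 0.05 in edgeR. Of all 14631 genes, 0.957% were called and 3.67% had an unadjusted P under 0.05.

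**Figure D3:**
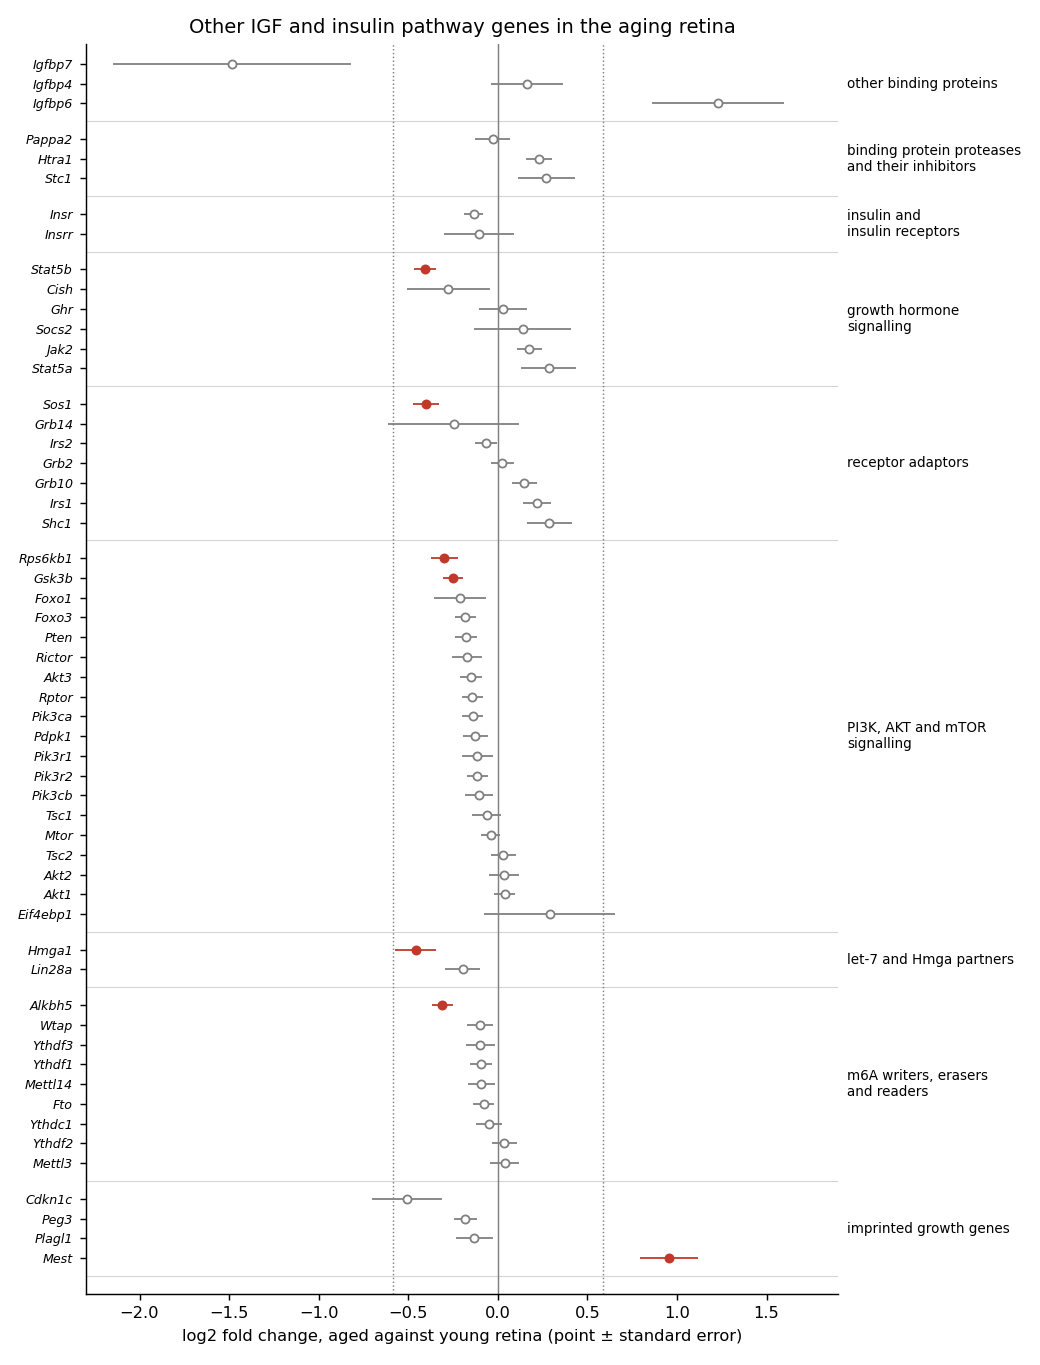
Log2 fold change of the 55 other pathway genes in aged against young retina, with bars for the standard error, grouped by role. Filled red points have an adjusted p under 0.05 and dotted lines mark 1.5-fold. Most genes lie between the dotted lines, with Mest and Igfbp6 to the right and Igfbp7, with a wide bar, to the left.

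The genes whose levels followed those of Igf2bp2 most closely over the 9 retina libraries were taken from 13092 genes with a mean log2 CPM of at least 1. They were Slc25a25, a mitochondrial carrier for ATP and magnesium (Pearson r = 0.99), a gene whose symbol had been turned into a date (ENSRNOG00000007367, r = 0.99), Dusp1, a phosphatase of MAP kinases (0.99), C2cd2l (0.99) and St3gal1, a sialyltransferase (0.99). The mean level in young, aged and treated retina was 83.2, 45.6 and 48.1 CPM for Slc25a25. For Dusp1 it was 35.6, 16.4 and 20.04 CPM. The 9 libraries fall into the young and the 2 aged groups, and the correlations are a description of that split across libraries of the same tissue. Over the 9 RPE/choroid libraries the closest of 12974 genes were Pex11g (r = 0.88), Gdf15 (0.87), Abcc10 (0.86), Cemip (0.86) and Tob2 (0.86), and the 2 lists share 0 genes.

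In RPE/choroid, some libraries stood apart. The summed rod markers ranged from 135 to 11756 CPM. The highest sum was in treated library 1, which also had 30623 CPM of 4 striated muscle markers and 1276 CPM of 4 surface epithelium markers, while its melanocyte sum was 709 CPM against 5941 CPM or more in the other libraries and its fibroblast sum 968 CPM against 3409 or more. Striated muscle markers also summed to 3084.5 CPM in young library 2, 1812 in aged library 1 and 1471 in treated library 2. In the remaining libraries they summed to 44.8 CPM or less. Treated library 3 had 125 CPM of Krt12, a keratin of the corneal epithelium, against 1.897 CPM or less in the other libraries. It also had 131 CPM of Optc, an opticin gene of the ciliary body, against 12.7 CPM or less. Krt12 and Optc were chosen after their values were seen. Labels tie young libraries 1 and 2 to one number with a left or right letter, and likewise aged libraries 1 and 2, without saying whether these are eyes of one rat.

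Igf2bp2 was low in RPE/choroid and its groups overlapped. The 3 young libraries had 4.60, 3.26 and 2.45 CPM, the aged libraries 4.48, 1.68 and 1.96, and the treated libraries 2.89, 1.19 and 3.32. The log2 fold change was -0.34 (SE 0.48) in aged against young RPE/choroid. It was -0.93 without aged library 1, -0.10 without aged library 2, -0.15 without aged library 3 and -0.08 without young library 1, and -0.55 without young library 3. With treatment, in compared with aged RPE/choroid, it was -0.11 (SE 0.60) and went from -0.41 to 0.45 when any 1 library was left out. The rod sums of the same libraries were 3820, 4318 and 403 CPM in young, 1878, 135 and 3522 in aged and 11756, 172 and 187 in treated RPE/choroid, and the part of retinal RNA was not tested.

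Of the 8 other members tested in aged against young RPE/choroid, 7 were not called and had overlapping groups, while 1.35% of all 16047 genes were called and the groups of 7.1% did not overlap. Igf2bp1, the eighth, is a description only, since it passed the filter only through its young libraries, where it was high. Young libraries 1 to 3 had 11, 14 and 56 counts of Igf2bp1, and aged libraries 1 to 3 had 8, 2 and 3. These groups did not overlap. Its log2 fold change of -2.19 (SE 0.79) had an adjusted p of 1.0 and met the call rule, but not without young library 3, where it was -1.41, or without aged library 2 or 3. In the treated libraries it had 0, 21 and 38 counts, and the 0 allows up to 0.0933 CPM in library 1. Igf2bp3, found in the counts by the identifier that carries its name in retina, had 0 to 17 counts in the 9 libraries.

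The growth factor and receptor genes had 582 counts or more in every RPE/choroid library, and none was called. Igf1 was at 44.2, 63.8 and 65.9 CPM in young and 48.1, 48.9 and 46.4 in aged libraries, with a log2 fold change of -0.29 (SE 0.18, adjusted p = 1.0). Igf2 was at 49.1, 68.2 and 80.1 CPM in young and 78.7, 111 and 79.5 in aged libraries, at 0.44 (SE 0.23, adjusted p = 1.0). For Igf1r the log2 fold change was 0.19 (SE 0.17) and for Igf2r -0.04 (SE 0.10). The ranges of all 4 genes overlapped between young and aged RPE/choroid.

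Igfbp2 was at 50.5, 73.5 and 79.1 CPM in young and 38.8, 54.5 and 46.0 in aged RPE/choroid, and only the highest aged library overlapped the young range. Its log2 fold change of -0.55 (SE 0.22, adjusted p = 1.0) was under 1.5-fold. Without young library 1 it was -0.73 and called, and without aged library 2 it was -0.69 and called. Igfbp5 ranged from 2019 to 2674 CPM in young and from 2350 to 2675 in aged libraries, with a log2 fold change of 0.16 (SE 0.20). Igfbp3 ranged from 174 to 245 CPM and from 173 to 274 CPM, with 0.14 (SE 0.22).

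The aging change was compared between the tissues in one fit with an interaction term over 16792 genes, of which 0.161% passed at an adjusted p under 0.05. None of the 7 other members in this fit passed, with 2 at an unadjusted P under 0.05, Igfbp2 and Igfbp5, as had 8.25% of all genes in the fit. For Igfbp2 the change in RPE/choroid minus that in retina was -1.51 (SE 0.36, adjusted p = 0.13), and for Igfbp5 it was 0.52 (SE 0.20, adjusted p = 0.49). For Igf2bp2 the difference was 1.83 (SE 0.48), given without a p-value. The tissues were counted separately, but their counts were normalized together in this fit. Only changes and not levels were compared.

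None of the 7 other members tested in 8-AG-treated against aged RPE/choroid was called, and 1.65% of all 16257 genes were. The groups of all 7 overlapped, whereas those of 3.96% of all genes did not. The treated libraries differed widely from each other. Igfbp2 was at 25.2, 40.5 and 549 CPM in the treated libraries, and Igf1 at 21.7, 47.1 and 173 CPM. Treated library 3 was thus above every other RPE/choroid library for both genes, and also for Igf1r (80.2 CPM) and Igf2r (104 CPM). Igfbp2 had a log2 fold change of 2.15 (SE 1.21, adjusted p = 1.0), which was -0.50 without treated library 3 and -0.20 without treated libraries 1 and 3 together. For Igf1 the value was 0.76 (SE 0.74), and -0.48 without treated library 3. Igfbp2 was called, at 2.67, without treated library 1.

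Treated library 1 was instead low in Igfbp3, Igfbp5 and Igf2. Igfbp3 was at 6.72 CPM there against 165 CPM or more in the other 8 libraries, and Igfbp5 at 500.5 CPM against 1726 CPM or more. Igf2 was at 18.1 CPM against 49.1 CPM or more. The same library had the lowest fibroblast, smooth muscle and endothelial marker sums, and the part of its tissue content was not tested. The log2 fold changes were -0.58 (SE 1.11) for Igfbp3, -0.59 (SE 0.64) for Igfbp5 and -0.82 (SE 0.53) for Igf2, and those of Igfbp3 and Igfbp5 were 0.34 and 0.15 without treated libraries 1 and 3 together. Without treated library 1 alone they were -0.02 for Igfbp3, -0.16 for Igfbp5 and -0.43 for Igf2, and without treated library 2 alone -1.44, -1.17 and -1.33.

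**Figure D4:**
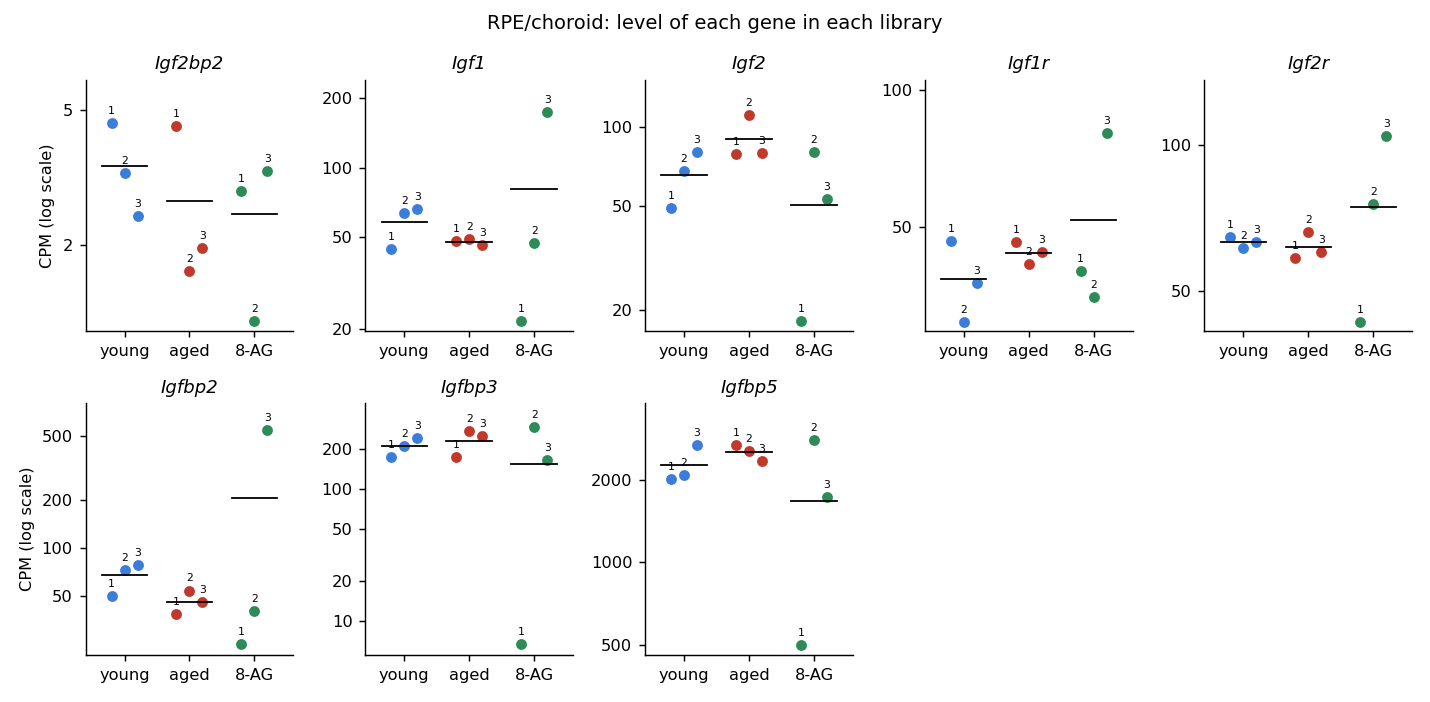
Level of 8 of the genes in the 9 RPE/choroid libraries, in CPM on log axes with a range of their own for each gene. Points are libraries numbered 1 to 3 within young, aged and 8-AG-treated aged (8-AG) rats, and black lines are group means. Treated library 3 is high for Igfbp2 (549 CPM) and Igf1 (173 CPM), and treated library 1 is low for Igfbp3 (6.72 CPM), Igfbp5 and Igf2.

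Of the 61 other pathway genes, 58 passed the filter in both RPE/choroid comparisons and 0 were called in either with edgeR. An unadjusted P under 0.05 was reached by 3 of the 58 with age and by 0 with treatment, against 2.13% and 1.69% of all genes. The median log2 fold change of the 58 genes was -0.01 with age and -0.02 with 8-AG, against 0.02 and 0.01 over all genes tested.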

How the data were processed

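By the protocol, neural retina and RPE/choroid were sequenced as poly-A libraries, the latter with enrichment for full-length transcripts, although the labels give total RNA for the 3 treated retina libraries. For retina, the authors deposited RSEM expected counts, 11.5% of them not whole and rounded here. For RPE/choroid they deposited raw counts. The authors also deposited TMM-normalized signal values of the retina, used only to name genes: of 14488 identifiers named both ways, 91.6% had the same name. The submitters' processing notes name Bowtie2 2.1.0, RSEM 1.2.15, edgeR and Rnor_6.0. Columns holding the authors' own fold changes and p-values were not used.

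The 6 libraries of each pair of groups were fitted alone in edgeR 4.0.16 under R 4.3.3 (filterByExpr, TMM, robust quasi-likelihood F-test, Benjamini-Hochberg adjustment). The SE is the log2 fold change divided by the square root of F. A gene was called at a fold over 1.5 and P under 0.05. The members, lists and tests were chosen with earlier results of these data known, so their p-values are descriptive. All members, called pathway genes and the 5 genes most like Igf2bp2 per tissue were named. Nothing states that the libraries of a group came from separate animals, so p-values measure only the spread between these samples, which may be technical. An exact permutation test of 3 against 3 cannot give a p below 0.1 and was not used. Alternatives were RLE size factors, DESeq2 1.42.0, omitting the filter, a minimum of 10 counts per library, 1 fit over 3 groups, a replicate block, libraries with a shared label number summed, and leaving out libraries. Leaving out treated RPE/choroid libraries 1 and 3 together was added after the data were seen. The pipeline was tested on simulated data. Tables used pandas 2.3.3, and figures matplotlib 3.10.9. The 4 listed marker genes without a name in the tables, 1 each for endothelium, surface epithelium, striated muscle and melanocytes, were left out of their sums. So was 1 marker gene that is not reported here.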

Additional observations from a re-analysis of the deposited data

How the results depend on the processing

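Across the alternatives, 389 of 420 changes of single members kept their direction and their side of the threshold. Most of the 420 were changes not called in the main fits, so the count says little about the called genes. It includes Igf2bp2 and leaves out runs whose filter removed the gene. In aged against young retina, the call rule gave 1 pathway gene with at least 10 counts in every library, 2 to 4 members (Igf2bp2 among them, as a description) and 2 to 4 pathway genes when 1 library was left out. All genes called there numbered 1001 to 1639 across the alternatives and 1098 to 1366 when 1 library was left out, against 1289. In 8-AG-treated against aged retina, all genes called numbered 318 without a filter (with 1 pathway gene), 92 with at least 10 counts and 142 to 255 when 1 library was left out. In aged against young RPE/choroid they numbered 364 without a filter, 131 with all 3 groups in one fit and 213 to 414 when 1 library was left out, with 0 to 2 members and 0 to 3 pathway genes. There, 0 members were called with at least 10 counts or all 3 groups in one fit (Igf2bp1 at -2.18), and 2 with libraries sharing a label number summed. In 8-AG-treated against aged RPE/choroid all genes called numbered 560 with DESeq2 (with 1 pathway gene), 503 without a filter, 465 with all 3 groups in one fit, 85 with libraries sharing a label number summed, 86 to 733 when 1 library was left out (with 0 to 2 members and 0 to 2 pathway genes) and 174 without treated libraries 1 and 3 together (with 1 pathway gene). The cause of these shifts was not tested.

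Members whose direction turned had small or unstable changes. In 8-AG-treated against aged retina, leaving out 1 library gave ranges of -0.097 to 0.0402 for Igf1, -0.14 to 0.0415 for Igf1r, -0.0055 to 0.082 for Igf2r, -0.0852 to 0.30 for Igfbp2 and -0.47 to 0.20 for Igfbp3. In aged against young RPE/choroid the range was -0.0029 to 0.30 for Igfbp3. In 8-AG-treated against aged RPE/choroid the ranges were -0.41 to 0.45 for Igf2bp2, -0.48 to 1.21 for Igf1, -0.22 to 0.47 for Igf1r, -0.0524 to 0.55 for Igf2r and -0.50 to 2.67 for Igfbp2, and Igf2bp2 was at 0.0203 with libraries sharing a label number summed. Without treated libraries 1 and 3 together, which leaves 1 treated library assumed to vary like the aged ones, the values were -0.0196 for Igf1, -0.32 for Igf1r, -0.20 for Igfbp2, 0.34 for Igfbp3 and 0.15 for Igfbp5.

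The main fits did not pair samples by replicate number, and 3 libraries per group cannot settle whether the numbers pair them. Same-numbered libraries correlated from -0.08 to 0.11 in aged against young retina and from -0.62 to 0.27 in RPE/choroid. In the comparisons with 8-AG they correlated from 0.04 to 0.08 and from -0.16 to 0.66. Differently numbered libraries correlated from -0.082 to 0.159 and from -0.602 to 0.792 with age, and from -0.11 to 0.046 and from -0.714 to 0.498 with 8-AG. With the replicate block, genes called in aged against young RPE/choroid went from 217 to 138 and members from 1 to 0, with Igf2bp1 at -2.16. Depth limited Igf2bp1 and Igf2bp3, which had 15 counts or fewer in every retina library. Of the members other than Igf2bp2, 0 had an aging change that differed between the tissues at an adjusted p under 0.05 in each alternative run.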

Other observations

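Other secreted binding proteins of the IGF system were also low in treated RPE/choroid library 1. Igfbp4 was at 50.2 CPM there and between 504 and 1117 CPM in the other 8 libraries. Igfbp6 was at 114 CPM against 377 to 834 CPM in the other 8 libraries. Igfbp7 was at 25.6 CPM against 294 to 1923 CPM, with the highest value in aged library 2.

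Mest, which rose in aged retina, was highest in the RPE/choroid libraries with many rod transcripts. It was at 12.4, 14.9 and 6.35 CPM in young, 11.1, 5.01 and 23.7 in aged and 30.5, 5.50 and 8.53 in 8-AG-treated RPE/choroid. The 4 libraries with rod sums of 403 CPM or less had 8.53 CPM of Mest or less, and the 5 others had 11.1 CPM or more. These values are a description of 9 libraries, and no test was made.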
